A study of Rattus norvegicus with 18 samples.

Results

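Astrocytes in the resting brain carry a characteristic set of channels, transporters, gap junction proteins, enzymes and regulators, and 9 genes of that set were followed across the groups of this study. They were Aqp4 and Slc14a1, which encode a water channel and a urea transporter, Kcnj10, which encodes an inwardly rectifying potassium channel, Gja1 and Gjb6, which encode the main connexins of astrocytes, the folate enzyme gene Aldh1l1, S100b, which encodes a calcium-binding protein, the transcription factor gene Sox9 and the growth factor receptor gene Fgfr3. The genes were chosen by name, with earlier results of these data known, and make up 9 of the 38445 genes in the deposited count tables. In each of 18 rats every one of the 9 was detected, with between 565 and 42708 counts, and all 9 passed the filter on low values.

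RNA-Seq was performed on the dorsal hippocampus of 18 adult male Sprague Dawley rats, bought at 75 to 85 days of age and fed a Lieber-DeCarli liquid diet as their only food. Control rats (n = 6) received the diet without ethanol and were pair-fed. Ethanol rats (n = 6) were on the diet with 9% v/v ethanol for 16 days and had not been withdrawn. Withdrawal rats (n = 6) were on the same ethanol diet for 15 days and were then given control diet for 24 h. Before the 9% diet, the study had introduced the rats of both these groups to ethanol gradually, at lower concentrations. The comparisons ask how levels differ during ethanol intake (ethanol vs. control), after withdrawal (withdrawal vs. control) and between those states (withdrawal vs. ethanol), and they share rats, so that they are not independent of each other.

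Homeostatic astrocytes clear potassium, water and transmitter from the extracellular space around synapses. Their end-feet on blood vessels hold Aqp4 and the potassium channel, and connexins join neighbouring astrocytes into a network through which ions and small molecules pass. Sox9 is a nuclear factor of astrocytes used to mark them, Fgfr3 receives fibroblast growth factor (FGF) signals, and Aldh1l1 and S100b are in wide use as astrocyte markers.

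Each rat yielded 30873228 to 42679748 counts on genes (median 36302755). Levels are given as CPM, the counts of a gene scaled to a common library size by the TMM method, and levels of different genes are compared as RPKM, which also divides by the exon length. Differential expression (DE) was tested with limma-voom and 3 surrogate variables, which are unnamed sources of variation estimated from the data, and q is the p adjusted over all 17853 genes tested. A gene was called DE at q below 0.1. By the index sequences on the libraries, all 6 control rats formed one set, the 6 ethanol rats and withdrawal rats 1 and 2 formed another, and withdrawal rats 3 to 6 the third, so that index set and diet cannot be told apart in a comparison with control. The dissected tissue also differed between rats. The summed level of 7 choroid plexus markers was 28.4 CPM in withdrawal rat 4 and 30.4 CPM in withdrawal rat 5, and between 1084 and 5335 CPM in the other rats. The 5 blood markers, all globin or heme synthesis genes, summed to between 128 and 227 CPM in control, 37.4 and 97.1 CPM in ethanol and 42.0 and 151 CPM in withdrawal rats, and all 5 were DE and lower in ethanol vs. control and in withdrawal vs. control. The part of these markers in the results below was not tested.

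The 9 genes spanned a wide range of levels. Per length, S100b stood highest in control rats at 613 ± 23.2 RPKM (SD, n = 6), followed by Aqp4 at 142 ± 12.3 and Gja1 at 130 ± 8.68 RPKM. Fgfr3 (24.9 ± 1.36 RPKM) and Kcnj10 (19.3 ± 1.31 RPKM) lay in the middle. Slc14a1 (11.1 ± 0.828), Gjb6 (10.5 ± 0.757) and Aldh1l1 (10.4 ± 0.802 RPKM) were close together, and Sox9 was lowest at 5.84 ± 1.02 RPKM. In control rats the ranges of Aqp4 and Gja1, of Slc14a1 and Gjb6, and of Gjb6 and Aldh1l1 overlapped, whereas those of the other neighbours in this order did not. S100b was above 99.8% of the genes tested and Sox9 above 50.2% in control rats. In withdrawal rats the means of these 3 close genes were 15.0 ± 3.55 RPKM for Slc14a1, 9.23 ± 2.37 RPKM for Gjb6 and 8.19 ± 1.76 RPKM for Aldh1l1.

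**Figure D1:**
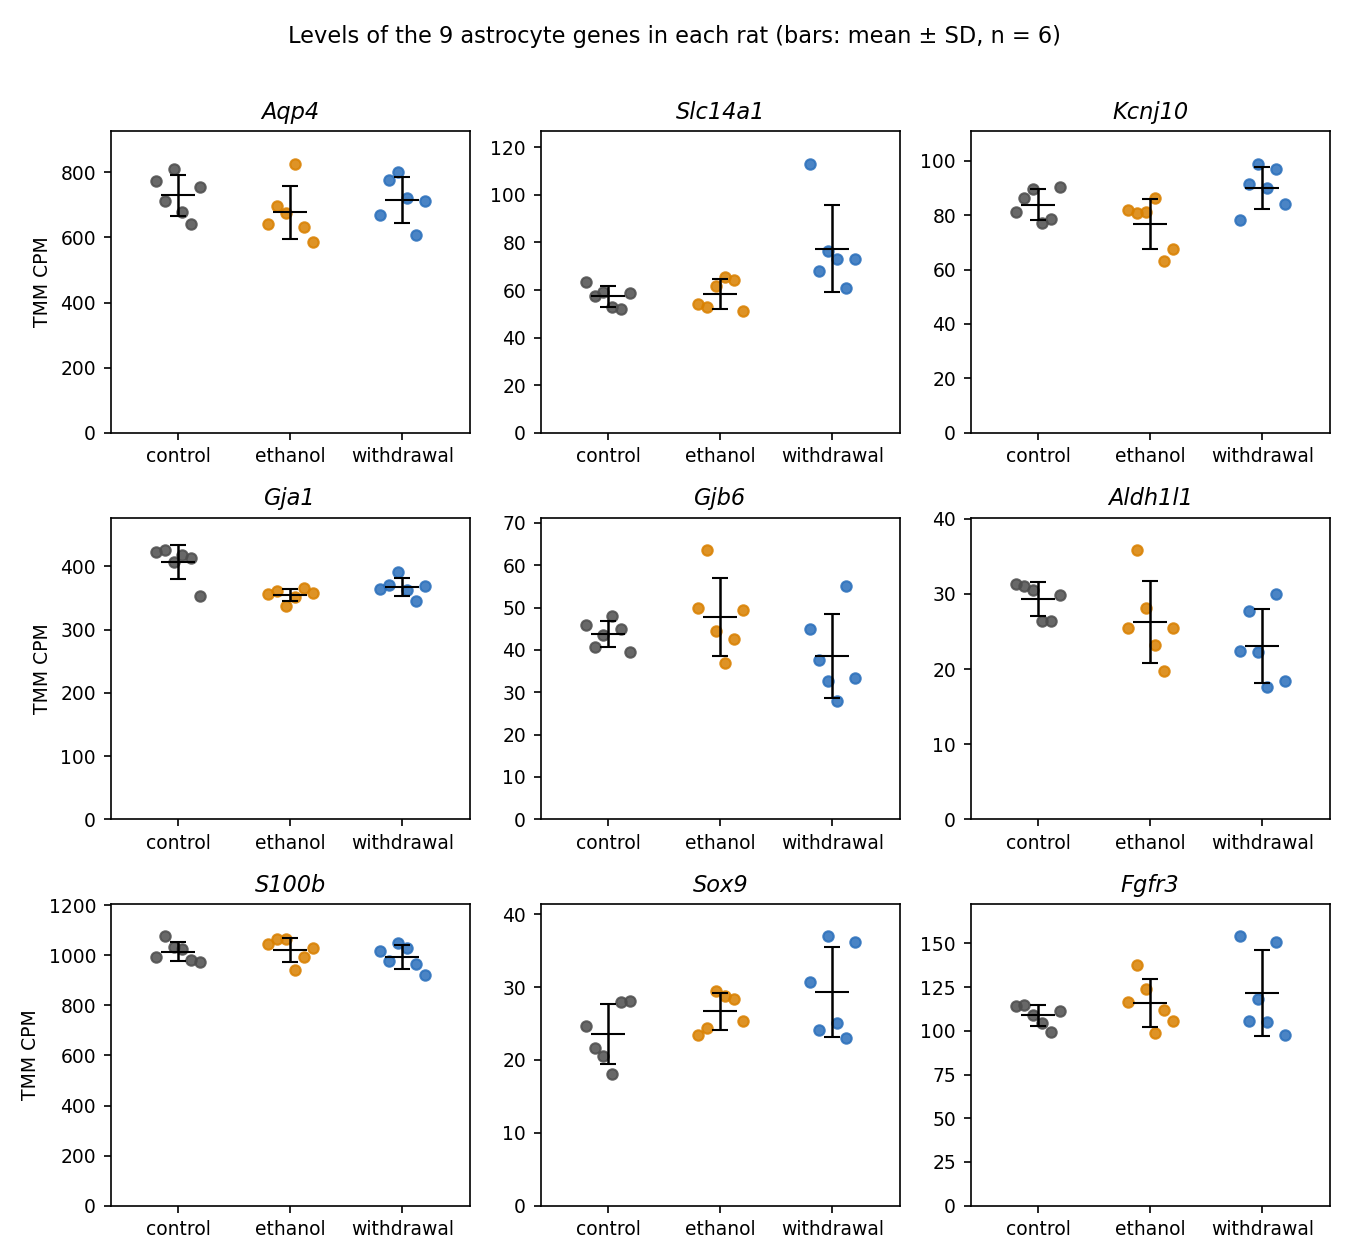
Each panel plots the level of one gene in TMM CPM (y axis, from 0) in the 6 control, 6 ethanol and 6 withdrawal rats, 1 point per rat, with a bar for the mean and SD. Slc14a1 was highest in withdrawal rat 1 at 113 CPM, and control rat 6 had the lowest Gja1 level of its group at 353 CPM.

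Slc14a1 (chromosome 18, 74461064 to 74504475, minus strand, Rnor_6.0), whose product carries urea across cell membranes, had a raised mean level after withdrawal. Its level (lowest, median and highest) was 51.9, 58.3 and 63.2 CPM in control rats, 51.3, 57.8 and 65.5 CPM in ethanol rats and 60.7, 73.2 and 113 CPM in withdrawal rats. Withdrawal rats 1, 2, 3, 4 and 6 were above every control rat, and withdrawal rat 5, the lowest of its group, was within the control range. Slc14a1 was DE and increased in withdrawal vs. control, with a log2 fold change of 0.43 (SE 0.098, 95% confidence interval 0.22 to 0.63, q = 0.0370 by limma-voom), and the exact permutation test on the levels gave p = 0.00433. With 1 rat left out the fold change ranged from 0.31 to 0.48. Slc14a1 was not called in ethanol vs. control (log2 fold change 0.06, interval −0.16 to 0.29, q = 0.857). Compared with ethanol rats, 5 of 6 withdrawal rats were above every one, with a log2 fold change of 0.36 (SE 0.11) that missed the threshold at q = 0.113 (exact permutation p = 0.0108). That difference was called in 5 of 14 other models, among them those without surrogate variables (q = 0.0964) and with 5 (q = 0.0377), and in 6 of 18 models that left out 1 rat. In these 18 models it ranged from 0.22 to 0.43. The study itself had picked Slc14a1 from these rats as a gene raised in withdrawal, and its direction here is not independent evidence. In bulk tissue a change in the number of astrocytes and a change in the RNA per astrocyte cannot be told apart, which holds for each of the 9 genes.

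Promoter sequences were taken from RefSeq (assembly GRCr8, 250 bases before to 50 bases after a gene's start, 5′ to 3′ on the gene's strand), and those of the 2 genes with the largest rise and the largest fall among the 9 in withdrawal vs. control (in the model with 3 surrogate variables, though not in every other model) are shown, Slc14a1 at chr18:73864594-73864893, minus strand, and Aldh1l1 at chr4:124616970-124617269, plus strand. Capitals mark a match to TATAAA, and the start listed for Slc14a1 lies inside the span of the gene.
Slc14a1: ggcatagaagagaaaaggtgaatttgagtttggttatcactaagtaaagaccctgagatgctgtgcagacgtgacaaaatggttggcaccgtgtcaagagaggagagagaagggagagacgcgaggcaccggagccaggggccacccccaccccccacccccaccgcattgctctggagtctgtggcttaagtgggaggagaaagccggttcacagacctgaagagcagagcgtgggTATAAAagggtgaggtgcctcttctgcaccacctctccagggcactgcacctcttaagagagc
Aldh1l1: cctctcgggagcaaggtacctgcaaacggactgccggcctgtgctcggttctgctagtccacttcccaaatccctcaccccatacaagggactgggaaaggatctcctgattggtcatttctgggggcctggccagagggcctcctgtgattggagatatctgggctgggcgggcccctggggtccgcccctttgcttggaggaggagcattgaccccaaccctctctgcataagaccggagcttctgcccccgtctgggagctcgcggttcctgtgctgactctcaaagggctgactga
The match to TATAAA in the Slc14a1 window begins 13 bases before the listed start. Aldh1l1 has none, and 14.2% of the 33469 promoters in the table hold TATAAA on either strand. The motif TTCNNNGAA, the core of the element bound by STAT factors and the same on both strands, was searched because STAT3 is the factor the study is about. It occurred in none of 10 windows for 8 of the 9 genes and in 8.87% of all promoters. Sox9 had no entry, and a window of this length says nothing on sites elsewhere in a gene.

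Aqp4 (chromosome 18, 6766009 to 6782757, minus strand), the water channel of the end-feet, was measured at 640, 734 and 811 CPM (lowest, median and highest) in control rats, 587, 659 and 826 CPM in ethanol rats and 607, 716 and 800 CPM in withdrawal rats. The groups overlapped over most of their range. The log2 fold change was −0.01 (interval −0.18 to 0.16, q = 0.966) in withdrawal vs. control, −0.12 (interval −0.30 to 0.06, q = 0.594) in ethanol vs. control and 0.11 (interval −0.08 to 0.30, q = 0.559) in withdrawal vs. ethanol, where it was 0.20 and called with 5 surrogate variables (q = 0.086). An exon of Aqp4 and one of Slc14a1 each overlap a gene without a known function on the opposite strand, and the reads were counted by strand.

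Kcnj10 (chromosome 13, 90722945 to 90753338, plus strand), whose channel takes up potassium released by active neurons, was lower in ethanol than in withdrawal rats on average. Its level was 77.0, 83.7 and 90.4 CPM in control rats, 63.0, 81.0 and 86.2 CPM in ethanol rats and 78.2, 90.7 and 98.9 CPM in withdrawal rats (lowest, median and highest). Ethanol rats 5 and 6, at 63.0 and 67.6 CPM, were below all rats of the other groups, and 4 of 6 withdrawal rats were above every ethanol rat. The log2 fold change was 0.25 (SE 0.076, q = 0.115, exact permutation p = 0.0260) in withdrawal vs. ethanol, −0.17 (SE 0.072, q = 0.338) in ethanol vs. control and 0.08 (SE 0.067, q = 0.547) in withdrawal vs. control, none of them past the threshold. With 5 surrogate variables Kcnj10 was called in withdrawal vs. control (0.21, q = 0.0568) and in withdrawal vs. ethanol (0.33, q = 0.0098), and in the latter it was also called by DESeq2 (q = 0.0471), with sample weights, with the filter of edgeR and without withdrawal rat 1 (q = 0.0439).

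Gja1 (chromosome 20, 37876650 to 37889097, plus strand), which encodes the most abundant connexin of astrocytes, was lower in most ethanol and withdrawal rats than in control rats. Control rats were at 353, 416 and 426 CPM (lowest, median and highest), ethanol rats at 338, 357 and 366 CPM and withdrawal rats at 346, 367 and 392 CPM. Control rats 1 to 5 were above all 12 other rats, and control rat 6, at 353 CPM, was among them. Control rat 6 also had the highest summed level of thalamus markers in its group, 634 CPM against 215 to 376 CPM. The part of this tissue was not tested. Gja1 fell by 0.13 on the log2 scale in withdrawal vs. control (SE 0.039, q = 0.0866 by limma-voom, exact permutation p = 0.0173), and the difference in ethanol vs. control was −0.18 (SE 0.042, q = 0.106, exact permutation p = 0.0108), just short of a call. When control rat 6 was left out, the ethanol vs. control difference was −0.22 and was called (q = 0.0881), as it was in 4 of 18 models that left out 1 rat and 6 of 13 other models. In withdrawal vs. control the call was kept in 6 of 13 other models. Withdrawal and ethanol rats differed by 0.04 (interval −0.05 to 0.14, q = 0.652).

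The second connexin gene, Gjb6 (chromosome 15, 37400888 to 37411656, minus strand), had a wider range in ethanol and in withdrawal rats than in control rats. Levels were 39.6, 44.3 and 48.0 CPM in control rats, 36.8, 46.9 and 63.6 CPM in ethanol rats and 27.8, 35.5 and 55.2 CPM in withdrawal rats (lowest, median and highest). Withdrawal rats 2, 3, 4 and 6 were below every control rat, whereas withdrawal rat 5 was above all of them. The coefficient of variation was 7.23% in control, 19.1% in ethanol and 25.7% in withdrawal rats. No comparison passed the threshold with 3 surrogate variables, with log2 fold changes of −0.25 (SE 0.12, q = 0.260) in withdrawal vs. control, 0.15 (SE 0.13, q = 0.673) in ethanol vs. control and −0.40 (SE 0.13, q = 0.148) in withdrawal vs. ethanol. In the last comparison Gjb6 was called in 3 of 14 other models, namely with 5 surrogate variables (q = 0.0348), by DESeq2 (q = 0.0581) and with sample weights, and in 2 of 18 models that left out 1 rat. Within the index set that both groups share, with withdrawal rats 1 and 2 only, the value there was −0.20. The ethanol vs. control value ranged from 0.03 to 0.21 with 1 rat left out.

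Aldh1l1 (chromosome 4, 123516553 to 123564067, minus strand in Rnor_6.0), whose product is a folate enzyme of the cytosol, was 26.4, 30.2 and 31.3 CPM in control rats, 19.7, 25.5 and 35.8 CPM in ethanol rats and 17.6, 22.3 and 29.9 CPM in withdrawal rats (lowest, median and highest). Withdrawal rats 1, 3, 4 and 6 were below every control rat, as were 4 of 6 ethanol rats, while withdrawal rats 2 and 5 were within the control range. Aldh1l1 was DE and fell by 0.41 on the log2 scale in withdrawal vs. control (SE 0.10, 95% confidence interval −0.63 to −0.19, q = 0.0487 by limma-voom, exact permutation p = 0.0325). In ethanol vs. control the log2 fold change was −0.14 (SE 0.11, q = 0.642), and in withdrawal vs. ethanol it was −0.27 (SE 0.12, q = 0.250). With 1 rat left out the former ranged from −0.28 to −0.05 and the latter from −0.41 to −0.12. The latter was called without withdrawal rat 2 (q = 0.0370) and without ethanol rat 5 (q = 0.0776).

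S100b (chromosome 20, 13130633 to 13142856, minus strand), the most abundant of the 9 per length, showed small differences between the groups. Its level was 975, 1011 and 1076 CPM in control, 942, 1036 and 1067 CPM in ethanol and 920, 998 and 1050 CPM in withdrawal rats (lowest, median and highest), and the groups overlapped. The log2 fold changes were −0.04 (interval −0.12 to 0.04, q = 0.580) in withdrawal vs. control, 0.04 (interval −0.04 to 0.13, q = 0.706) in ethanol vs. control and −0.08 (interval −0.17 to 0.01, q = 0.329) in withdrawal vs. ethanol.

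Sox9 (chromosome 10, 101288528 to 101294030, plus strand), the transcription factor gene, was the lowest of the set per length and varied between control rats more than the other 8 genes did, with a coefficient of variation of 17.4%. Control rats were at 18.1, 23.2 and 28.1 CPM, ethanol rats at 23.5, 26.9 and 29.4 CPM and withdrawal rats at 23.05, 27.9 and 37.0 CPM (lowest, median and highest). Withdrawal rats 1, 3 and 6 were above every control rat, as were ethanol rats 3, 4 and 5, and the other 3 withdrawal rats were within the control range. Sox9 rose by 0.37 on the log2 scale in withdrawal vs. control (SE 0.12, q = 0.0979 by limma-voom), whereas the exact permutation test on the levels gave p = 0.0866, above 0.05. The call was kept in 3 of 13 other models and ended with either other scaling to library size (q = 0.101 with RLE size factors and 0.104 with library totals). The values were 0.18 (SE 0.13, q = 0.601) in ethanol vs. control and 0.19 (SE 0.13, q = 0.469) in withdrawal vs. ethanol.

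Fgfr3 (chromosome 14, 82272322 to 82287739, minus strand), a receptor tyrosine kinase gene, was 99.4, 110 and 115 CPM in control rats, 98.8, 114 and 138 CPM in ethanol rats and 97.5, 112 and 154 CPM in withdrawal rats (lowest, median and highest). Withdrawal rats 1 and 5 had the highest levels of all 18, at 154 and 151 CPM, and withdrawal rat 6 the lowest. No comparison was called, with log2 fold changes of 0.08 (SE 0.048, q = 0.356) in withdrawal vs. control, 0.16 (SE 0.051, q = 0.220) in ethanol vs. control and −0.07 (SE 0.054, q = 0.523) in withdrawal vs. ethanol. In the last comparison the sign depended on the model, and without surrogate variables the value was 0.06.

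In withdrawal vs. control 4 of the 9 genes were DE, of which Slc14a1 and Sox9 rose and Aldh1l1 and Gja1 fell, where 5.41% of all genes tested were called, 2.85% higher and 2.55% lower. Because the 9 genes were chosen with earlier results of these data known, their share is not independent evidence of an excess. Over all genes 509 were higher and 456 lower, and with library totals in place of TMM 436 were higher and 626 lower. The median log2 fold change of the 9 genes was −0.01, against 0.00030 over all genes. In ethanol vs. control none of the 9 was called by limma-voom with 3 surrogate variables, with 0.493% of all genes called, and the median was 0.04. Gja1, Kcnj10 and Fgfr3 had an unadjusted p under 0.05 there, as had 12.5% of all genes. In withdrawal vs. ethanol none of the 9 was called by limma-voom with 3 surrogate variables, with 2.72% of all genes called, and the median was again 0.04. Slc14a1, Kcnj10, Gjb6 and Aldh1l1 had an unadjusted p under 0.05 in that model, as had 16.7% of all genes. Without surrogate variables 1 of the 9 was called, where 318 of the 17853 genes were higher and 303 lower. With 5 of them 4 of the 9 were called, where 441 genes were higher and 430 lower. No gene of the 9 had groups without overlap in any comparison, where 1.06% (withdrawal vs. control), 1.32% (ethanol vs. control) and 1.22% (withdrawal vs. ethanol) of all genes did. By the quasi-likelihood test of edgeR with the same surrogate variables, 4 of the 9 were called in withdrawal vs. control, 0 in ethanol vs. control and 0 in withdrawal vs. ethanol. Of the 17853 genes that test called 542 higher and 488 lower, 66 higher and 30 lower, and 235 higher and 297 lower in these comparisons.

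**Figure D2:**
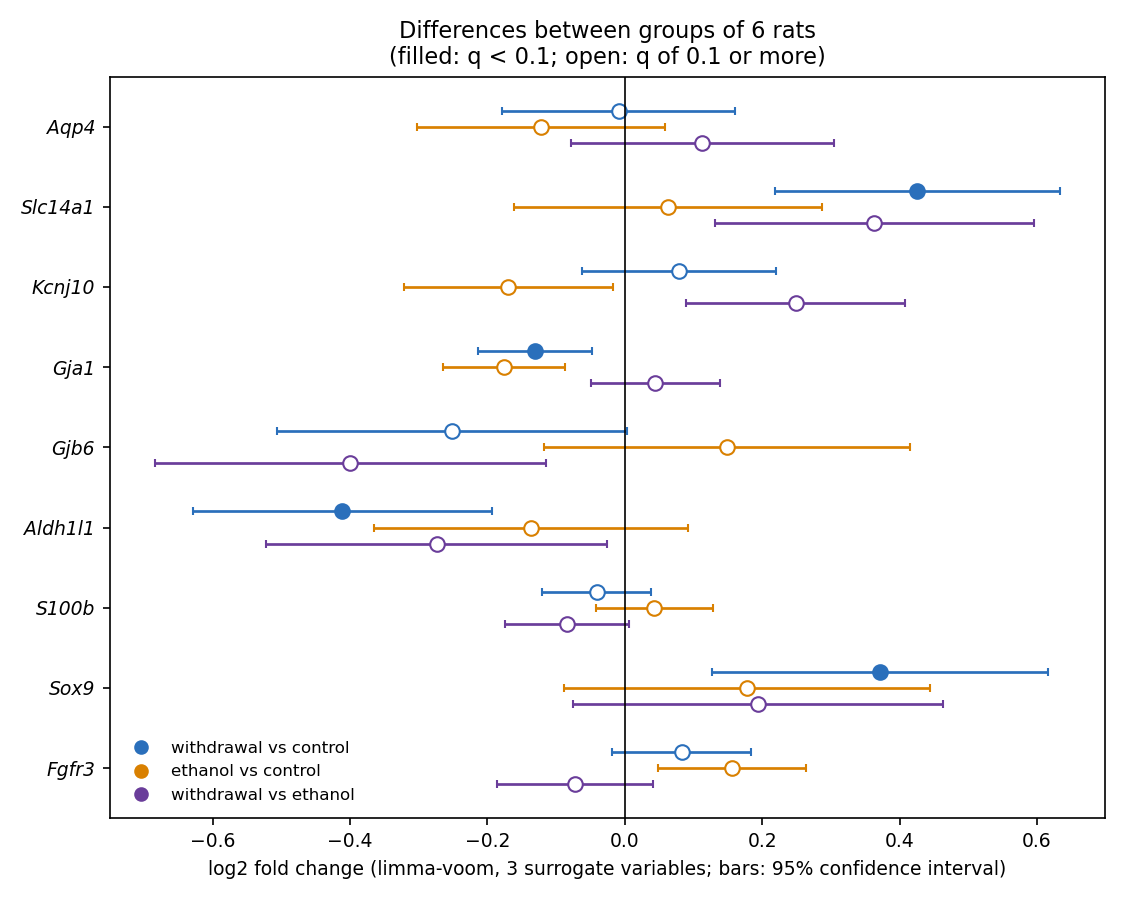
The log2 fold change (x axis) of each of the 9 genes (y axis) is plotted for the 3 comparisons, with bars for the 95% confidence interval and filled points for q below 0.1. The filled points are Slc14a1 and Sox9 to the right and Gja1 and Aldh1l1 to the left, all in withdrawal vs. control.

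The 4 calls rested on the surrogate variables and on single rats. Without surrogate variables none of the 9 genes was called in withdrawal vs. control, with q = 0.171 for Slc14a1, 0.226 for Gja1, 0.293 for Aldh1l1 and 0.363 for Sox9, while the log2 fold changes were 0.41, −0.15, −0.37 and 0.31. Without withdrawal rat 6 none was called either, with q = 0.118 for Slc14a1, 0.216 for Aldh1l1, 0.289 for Gja1 and 0.293 for Sox9, while the log2 fold changes were 0.48, −0.36, −0.12 and 0.33. Slc14a1 was called in 17 and Aldh1l1 in 16 of 18 models that each left out 1 rat, the second loss being that without withdrawal rat 3 (q = 0.102), whereas Gja1 was called in 7 and Sox9 in 4 of them.

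Rat by rat, the genes did not move as one block. Withdrawal rat 1 was highest in Slc14a1, 0.98 above the control mean on the log2 scale, with Fgfr3 0.50 above and Aldh1l1 0.38 below. Withdrawal rat 4 had the lowest values of Gjb6 (−0.64) and of Aldh1l1 (−0.72) among all rats, and rat 6 followed it in Aldh1l1 (−0.66). Withdrawal rat 5 ran the other way in several genes. In it Gjb6 was 0.33 and Fgfr3 0.47 above the control mean, Aldh1l1 (0.03) and Slc14a1 (0.09) were near it, and Aqp4 was 0.26 below. Withdrawal rat 5 also had the highest summed level of the meningeal markers, 511 CPM against 101 to 325 CPM in the other rats, and of the mural cell markers (223 CPM), and withdrawal rat 4 had the lowest meningeal sum (101 CPM). The part of these cells was not tested. Among ethanol rats, rat 2 had the highest Gjb6 (0.54) and Aldh1l1 (0.29), and rat 5 the lowest Aldh1l1 (−0.55).

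**Figure D3:**
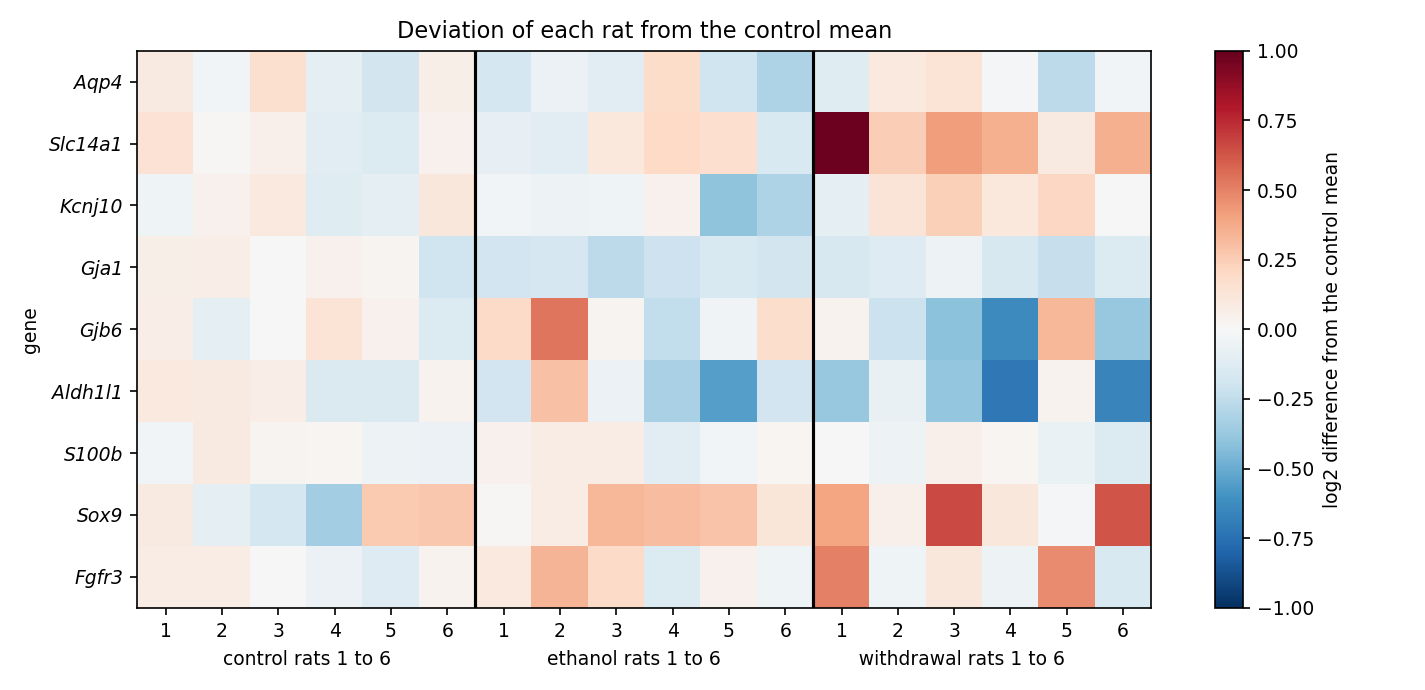
The color gives the log2 difference of each rat (columns, 6 per group) from the mean of the control rats for each gene (rows), red for higher and blue for lower. Slc14a1 is red in all 6 withdrawal rats, Gja1 is blue in all 12 ethanol and withdrawal rats, and Gjb6 and Aldh1l1 are blue in withdrawal rats 2, 3, 4 and 6.

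Ratios within a rat do not depend on the scaling to library size. The log2 ratio of Slc14a1 to Aldh1l1 was 0.88, 0.96 and 1.00 (lowest, median and highest) in control rats, 0.56, 1.09 and 1.68 in ethanol rats and 1.01, 1.86 and 2.31 in withdrawal rats. Every withdrawal rat was above every control rat, with the lowest, withdrawal rat 5, just above the highest control rat. The mean difference was 0.77, and it was 0.65 without withdrawal rat 1. Against ethanol rats the difference was 0.57. These values are a description with no test, since the ratio sets the gene that rose most against the one that fell most in the same rats.

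The ratio of both connexin genes, Gjb6 to Gja1, was higher in ethanol than in control rats on average. It was −3.37, −3.19 and −3.11 in control, −3.24, −2.88 and −2.50 in ethanol and −3.68, −3.36 and −2.64 in withdrawal rats (lowest, median and highest, log2). Ethanol rats were higher by 0.30 on average (exact permutation p = 0.0216, adjusted p = 0.0896 over 9 ratio tests), and the groups overlapped. The 9 include the tests of the Slc14a1 and Gfap ratios, whose small p-values lower this adjusted p, so no call is drawn from it. For Gfap, which encodes an intermediate filament of astrocytes, the ratio to Aldh1l1 differed on average by 0.80 in withdrawal vs. control and by 0.91 in withdrawal vs. ethanol. No test is given for it either, since Gfap was known to be raised in these rats. Withdrawal rat 5 had the lowest value of its group in this ratio too (4.39), below the whole control range of 4.80 to 5.21.

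**Figure D4:**
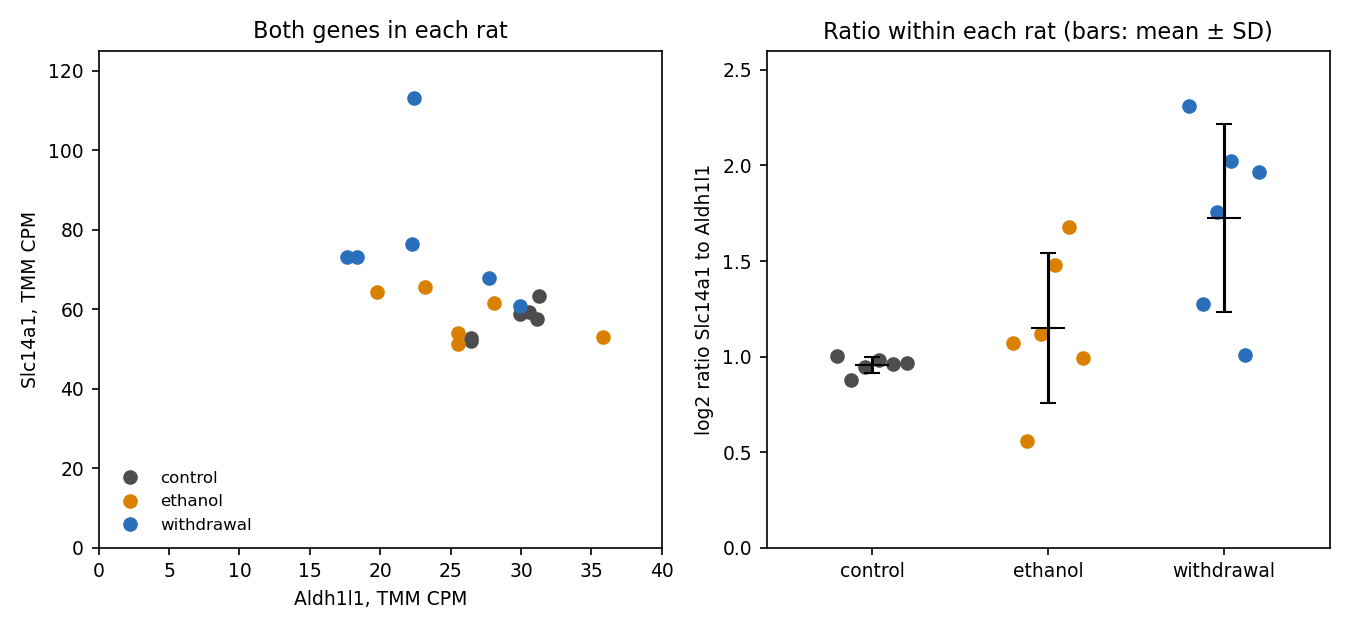
The left panel plots Slc14a1 against Aldh1l1 (both in TMM CPM) with 1 point per rat, and the right panel plots their log2 ratio in the 6 rats of each group with the mean and SD. Control rats lie between 0.88 and 1.00 and withdrawal rats between 1.01 and 2.31, as a description with no test.

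Genes that work beside the 9 were taken as lists. In the glutamate uptake and metabolism list none of 10 genes was called in any comparison by limma-voom with 3 surrogate variables, with a median log2 fold change of 0.03 in withdrawal vs. control. Of all genes 5.41% were called in withdrawal vs. control, 0.493% in ethanol vs. control and 2.72% in withdrawal vs. ethanol, so that a count of 0 in each of these short lists is near the background. Slc1a2 and Slc1a3, the glutamate transporter genes, differed by 0.02 (q = 0.902) and 0.08 (q = 0.485) there, and Glul, the gene of glutamine synthetase, by 0.15 (q = 0.275). None of 9 tested genes for end-foot anchoring and volume regulation, such as the syntrophin and dystroglycan that hold Aqp4 in place, was called, with a median of 0.05. Of 8 potassium and ion transport genes none was called. Kcnj16, whose product joins that of Kcnj10 in a channel, was at −0.10 (q = 0.511) in withdrawal vs. control, −0.28 (q = 0.215) in ethanol vs. control and 0.17 (q = 0.375) in withdrawal vs. ethanol. The 8 other connexin genes (median −0.02 in withdrawal vs. control) and the 10 other enzymes of folate one-carbon metabolism (median 0.08) held no call in any comparison. Among the other connexin genes Gjb2, chosen after its values were seen, was at −0.56 (q = 0.115, exact permutation p = 0.0281) in withdrawal vs. control and at −0.62 (q = 0.148, exact permutation p = 0.0346) in withdrawal vs. ethanol.

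Of 10 further astrocyte transcription factor genes only Sox21 was called in withdrawal vs. control, where 5.41% of all genes were called and 2.85% rose. It rose by 0.39 on the log2 scale (SE 0.079, q = 0.0230), with 8.88 ± 0.627 CPM in the control group against 11.8 ± 1.46 CPM after withdrawal (SD, n = 6). Every withdrawal rat was above every control rat for Sox21, and 1.06% of all genes had groups without overlap. The list's median was −0.02. Among 15 other astrocyte markers Htra1, a secreted protease gene, was the 1 gene called in withdrawal vs. control, against the same 5.41% of all genes, and rose by 0.58 (SE 0.15, q = 0.0491), and Ndrg2 fell by 0.30 (SE 0.057, q = 0.0317) in withdrawal vs. ethanol, where 2.72% were called. The medians of the markers were 0.03 and −0.04. Without withdrawal rat 6, and likewise without surrogate variables, none of these 3 was called, and calls were also lost for Htra1 without control rat 3 and with 5 surrogate variables, and for Ndrg2 without ethanol rat 2 or 3, in a model of the 2 groups and with the replicate block, among other settings.

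The FGF list holds ligands, other receptors and feedback targets that act with Fgfr3. In withdrawal vs. control 8 of its 13 genes rose and none fell, where 2.85% of all genes rose, and the median log2 fold change was 0.25. This list was chosen with earlier results of these data known, so the count is not independent evidence. Etv4, a transcription factor gene induced by FGF signals, had 6.42, 8.08 and 9.39 CPM in control, 4.61, 6.86 and 11.3 CPM in ethanol and 9.72, 14.4 and 16.8 CPM in withdrawal rats (lowest, median and highest). Its log2 fold change was 0.80 (SE 0.16, q = 0.0226) in withdrawal vs. control, with no overlap between the groups, as for 1.06% of all genes. Spry4, an inhibitor gene of the list chosen after its values were seen, did not overlap either but was not called (0.31, q = 0.104). Etv5, of the same family, rose by 0.43 (SE 0.088, q = 0.0244), the receptor gene Fgfr2 by 0.22 (SE 0.049, q = 0.0355) and Spred2, which encodes an inhibitor of the pathway, by 0.30 (SE 0.076, q = 0.0476). The other genes called were Fgfr1, Spry1, Spry2 and Spred1, with values between 0.23 and 0.45. In withdrawal vs. ethanol Etv4, Etv5 and Spred2 rose (0.87, 0.37 and 0.31, with q between 0.0395 and 0.0872), where 1.23% of all genes rose, and in ethanol vs. control none of the 13 was called.

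**Figure D5:**
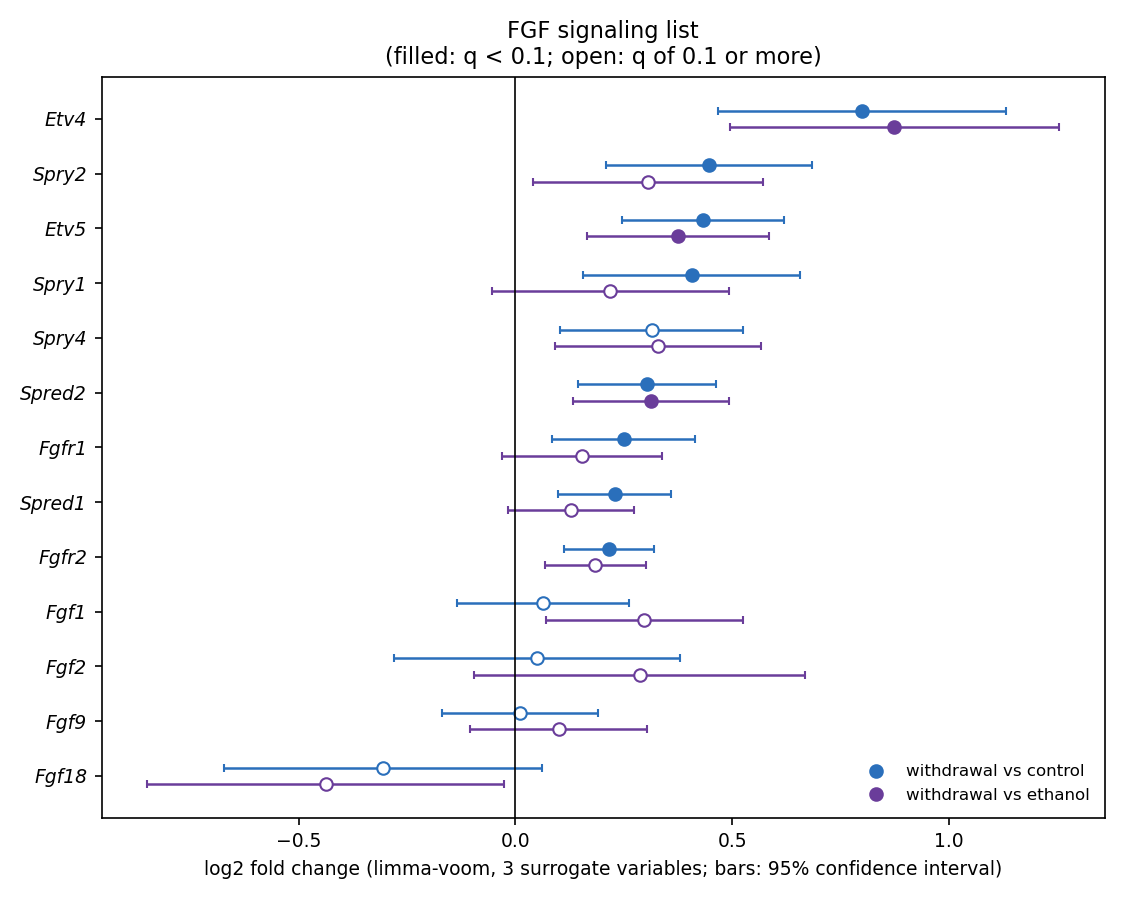
The log2 fold change (x axis) of each of the 13 genes of the FGF list (y axis) is plotted for withdrawal vs. control and withdrawal vs. ethanol, with bars for the 95% confidence interval and filled points for q below 0.1. In withdrawal vs. control 12 of 13 points lie above 0, from Etv4 at 0.80 down to Fgf18 at −0.31.

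The count of FGF genes that rose in withdrawal vs. control was 1 without surrogate variables (14 of all genes rose), 3 with 2 of them (300) and 0 without withdrawal rat 6 (14). It was 4 without withdrawal rat 1 (331) and 5 without control rat 2 (331), 3 (224) or 6 (222). The median of the list stayed between 0.22 and 0.29 in these models. With 5 surrogate variables 2 rose (184 of all genes) and the median was 0.18. For withdrawal vs. ethanol the count ranged from 0 (without ethanol rat 2 or 3 or withdrawal rat 6, where 0 of all genes rose) to 6 (without ethanol rat 5, where 813 did) when 1 rat was left out. It was 0 in a model of the 2 groups and with the replicate block, where again 0 of all genes rose. Endothelial markers moved in withdrawal vs. control too, with 4 of 7 called and higher (median 0.18), where 2.85% of all genes rose, and summed levels of 299 to 344 CPM in control and 318 to 436 CPM in withdrawal rats. Of the ependymal markers 3 of 5 were called and higher there, against the same 2.85% (median 0.36), with sums of 28.1 to 42.3 CPM in control and 23.4 to 73.3 CPM in withdrawal rats, where the medians were 33.3 and 31.5 CPM and withdrawal rats 2 and 6 alone exceeded the control range. No marker of either list was at 0 in all rats of a group, and the part of these cells in the result was not tested.

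Among 14 tested genes of reactive astrocytes 6 rose and 1 fell in withdrawal vs. control, where 2.85% of all genes rose and 2.55% fell, with a median log2 fold change of 0.64. S1pr3, a lipid receptor gene, rose by 0.76 (q = 0.0195), Cp, the gene of ceruloplasmin, by 0.66 (q = 0.0291) and Hspb1, a small heat shock protein gene, by 1.13 (q = 0.0467), and the complement gene C3 fell by 0.77 (q = 0.0247). Gfap rose by 0.54 (SE 0.15, q = 0.0775), with means of 939 ± 58.1 CPM in the control group and 1326 ± 345 CPM after withdrawal (SD, n = 6), although withdrawal rat 5, at 639 CPM, was below every control rat. Stat3, the factor the study followed, rose by 0.32 (SE 0.074, q = 0.0372). In withdrawal vs. ethanol 3 of the 14 rose, where 1.23% of all genes did, namely Gfap by 0.74 (SE 0.17, q = 0.0578), S1pr3 by 0.63 (q = 0.0531) and Osmr by 0.97 (q = 0.0967), and in ethanol vs. control only C3 was called, with −0.89 (q = 0.0688). That call was lost without control rat 1, 4 or 6 or ethanol rat 3 or 6, in a model of the 2 groups and with no filter. The list was fixed with results of these rats known and is not independent evidence of direction. Without withdrawal rat 6 none of the 14 was called (14 of all genes rose). Of the 14, 2 rose without control rat 6 (222 of all genes), 3 without control rat 1 (302), 2 (331), 3 (224) or 5 (286), 4 without control rat 4 (275) or withdrawal rat 1 (331) and 9 without withdrawal rat 2 (994). Without surrogate variables 0 rose and 1 fell, where 14 of all genes rose and 27 fell. With 2 surrogate variables 2 rose (300 of all genes), and with 5 of them 3 rose (184) and none fell with a median of 0.31. Without withdrawal rats 1 and 6 none was called (1 of all genes) and the median was 0.28. Between 0 and 5 rose in withdrawal vs. ethanol when 1 rat was left out, where between 0 and 813 of all genes rose. None of the 14 was called there in a model of the 2 groups (0 of all genes) or with the replicate block (1).

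The genes most like each of the 9 across the 18 rats were found by Pearson's r of log2 levels with each group centered on its mean, among 13977 genes, as a description. Fgfr3 was most like Aldoc (r = 0.96), a glycolytic enzyme gene of astrocytes, Lhx5 (0.96) and Qpct (0.95). Aldh1l1 was nearest to Nadsyn1 (0.91), Naaa (0.88) and Eln (0.88), and Slc14a1 to Nptx2 (0.90), Ubr7 (0.89) and Irf1 (0.88), the last an interferon-induced factor gene. Gjb6 was nearest to Smyd3 (0.88), Fanca (0.87) and Paqr8 (0.85), Kcnj10 to Dhx34 (0.86) and Tmem229a (0.85), and Aqp4 to Gpr17 (0.84), Nckap1l (0.82) and Rgs20 (0.82). Gja1 was nearest to C13h1orf226 (0.84), Taok2 (0.81) and Tusc2 (0.80), S100b to Rnase4 (0.83), Zbed3 (0.77) and Gpc5 (0.77), and Sox9 to Zfp608 (0.78), Dut-ps (0.73) and Dtwd2 (0.71). These values share libraries and depth, and the highest of so many values are high by selection.

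Of the 36 pairs among the 9 genes themselves, the highest Pearson correlation was that of Gjb6 with Fgfr3 (Pearson's r = 0.74, permutation p = 0.0074, Spearman's rho = 0.61, permutation p = 0.0277), and r was 0.56 without the 2 rats farthest from the median of Gjb6. Gjb6 and Aldh1l1 followed (r = 0.71, permutation p = 0.0096, rho = 0.59, permutation p = 0.0292, r = 0.44 without 2 rats). By Spearman's rho the highest was Aldh1l1 with Fgfr3 (rho = 0.70, permutation p = 0.00682, r = 0.63, permutation p = 0.0315, r = 0.40 without 2 rats). After adjustment over the 36 pairs none of the 3 passed, with adjusted p = 0.172 (r) and 0.308 (rho) for both pairs with Gjb6 and 0.284 (r) and 0.246 (rho) for Aldh1l1 with Fgfr3.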

How the data were processed

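Strand-specific libraries were made from poly(A) RNA of 18 rats and sequenced from both ends. Per the labels and file headers, the authors used STAR 2.5.2a and the genome Rnor_6.0, counted read pairs on exons by strand with featureCounts 1.5.0, and deposited these counts without normalization as 1 table per rat, with exon coordinates and gene lengths. Of 38445 gene identifiers 29322 were named from a RefSeq table of GRCr8, used for names and promoters only. Groups were taken from the sample labels. Counts were scaled by TMM (edgeR 4.0.16), genes above 0.5 CPM in at least 1 rat were kept, and 3 surrogate variables (sva 3.50.0, log2 CPM with a prior count of 2) entered one limma 3.58.1 voom model of all 3 groups in R 4.3.3. The study used limma after surrogate variable adjustment, with a cutoff of 0.5 on TMM-normalized values, and the number of variables and of rats that had to pass the cutoff are not given in the sources used here. Two-sided p-values were adjusted by Benjamini-Hochberg within a comparison, with a threshold of 0.1. Single levels and ratios, as log2 of CPM + 0.5, were tested two-sided by exact permutation of the rats (924 splits), unadjusted for levels, and correlations by 100000 permutations. A threshold of 0.1 on the adjusted p was set for ratios. The ratios of Slc14a1 and Gfap to Aldh1l1 are given without their tests, which remain among the 9 adjusted. Their small p-values lower the adjusted p of the Gjb6 to Gja1 ratio, so no ratio is called. As a check for a library deposited more than once, no pair of libraries of a group matched within sampling noise (chi-square per degree of freedom at least 5.44). Tests of levels and figures were made in Python 3.11.15 (scipy 1.17.1, pandas 2.3.3, matplotlib 3.10.9 and numpy 2.4.6).

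The 9 genes, the lists and the tests were chosen with earlier results of these data known. All 9 genes were named. From the lists, genes with q below 0.1 (at most 4 per list and comparison, those of smallest q) and always Gfap, Kcnj16, Slc1a2, Slc1a3, Glul and Stat3 were given values, and 3 nearest genes per member with a mean of at least 1 CPM, of which 1 is not reported here. Sox21, Htra1 and the genes of the FGF plot follow from that rule or complete a list. Marker lists of neurons, oligodendrocytes and their precursors, microglia, mural cells, meninges and thalamus were summed too. Of these, called in withdrawal vs. control were 0 of 6 neuron, 0 of 8 oligodendrocyte, 2 of 4 precursor (1 higher and 1 lower), 0 of 8 microglia, 1 of 6 mural (higher), 0 of 6 meningeal and 1 of 6 thalamus genes (lower), where 5.41% of all genes were called. The highest thalamus sum was 1236 CPM in ethanol rat 1. Alternatives were other numbers of surrogate variables, edgeR quasi-likelihood, DESeq2 1.42.0, sample weights, other scalings, filters and thresholds, models of 2 groups, a replicate block, and leaving out rats.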

Additional observations from a re-analysis of the deposited data

Results flagged for a closer look

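In 36 groups of 6 rats (the 9 genes and 3 ratios in 3 diets) a single rat was compared with the rest of its group by Dixon's ratio, the gap to the nearest rat over the whole range, against Dixon's 95% critical value. Chance marks about 1 in 20 groups, and 3 of 36 were marked. Control rat 6 had 353 CPM of Gja1, while the other control rats had 407 to 426 CPM (ratio 0.741). Withdrawal rat 1 had 113 CPM of Slc14a1, while the other withdrawal rats had 60.7 to 76.4 CPM (ratio 0.701). Control rat 2 had a log2 ratio of Gjb6 to Gja1 of −3.37, while the other control rats had −3.21 to −3.11 (ratio 0.627).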

How the results depend on the processing

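The lowest count of the 9 genes in a rat was 565, and the part of depth was not tested. The number of the 9 called varied with the model and with the rats included. In withdrawal vs. control the number of the 9 genes called was 4, and it was 0 of 9 without surrogate variables by limma-voom (41 genes called of all) and by edgeR (33), without withdrawal rats 1 and 6 (1) and without withdrawal rat 1 and surrogate variables (0), the last 2 settings being chosen after seeing the data. Without withdrawal rats 1 and 6 the log2 fold changes were 0.32 for Slc14a1, −0.16 for Aldh1l1, −0.10 for Gja1 and 0.33 for Sox9. The number called was 2 at q below 0.05 (370), with 2 (594) or 5 (262) surrogate variables, with no filter (486), in a model of the 2 groups (623 higher and 539 lower) and with the replicate block (537 higher and 404 lower). The genes were Slc14a1 and Kcnj10 with 5 surrogate variables, where Aldh1l1 was at −0.29 (q = 0.161), and Slc14a1 and Aldh1l1 in the other cases. DESeq2 called 1624 of all genes. The log2 fold change of Aqp4 there turned from −0.01 to 0.13 with 5 surrogate variables, 0.043 with sample weights, 0.0077 with no filter, 0.12 without withdrawal rats 1 and 6, and to at most 0.037 without control rat 1 (0.0030) or 3 (0.026) or withdrawal rat 1 (0.017), 5 (0.020) or 6 (0.037), with −0.044 without control rat 5 as the lowest. In ethanol vs. control 1 of the 9, Gja1, was called with 2 (47 of all genes higher and 24 lower) or 5 (322 of all genes) surrogate variables and by edgeR without them (43 higher and 19 lower). It was also called by DESeq2 (473), with sample weights (440) and with the filter of edgeR (74 higher and 30 lower). All genes called were 10 at q below 0.05, 50 without surrogate variables, 9 with no filter, 28 in a model of the 2 groups and 33 with the replicate block. In withdrawal vs. ethanol 1 of the 9 was called without surrogate variables by limma-voom (318 of all genes higher and 303 lower) and edgeR (348 higher and 334 lower) and with the filter of edgeR (221 higher and 282 lower). By DESeq2 (1176 of all genes) and with sample weights (1073) 3 were called, and 4 with 5 surrogate variables (871). All genes called were 112 at q below 0.05, 260 with 2 surrogate variables, 166 with no filter, 0 in a model of the 2 groups, 0 within the index set that both groups share, 1 with the replicate block, 1 without withdrawal rats 1 and 6 and 164 without withdrawal rat 1 and surrogate variables. Fgfr3 there turned from −0.07 to 0.058 without surrogate variables, 0.073 by edgeR without them and 0.15 within the shared index set. The cause was not tested in any of these cases.

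When 1 rat was left out, the number of the 9 called ranged from 0 (without withdrawal rat 6) to 4 in withdrawal vs. control, from 0 to 1 in ethanol vs. control and from 0 to 2 in withdrawal vs. ethanol, and all genes called from 23 (without withdrawal rat 6) to 1911, 0 to 258 and 0 to 1800. Of 27 exact tests of levels 6 had p below 0.05, and 4 to 8 did with 1 rat left out. The differences of the log2 ratio of Slc14a1 to Aldh1l1 then ranged from 0.65 to 0.91 (withdrawal vs. control), 0.088 to 0.31 (ethanol vs. control) and 0.46 to 0.72 (withdrawal vs. ethanol), all given without a test. For Gjb6 to Gja1 they ranged from −0.19 to 0.015 (withdrawal vs. control), 0.22 to 0.37 (ethanol vs. control) and −0.49 to −0.29 (withdrawal vs. ethanol). The adjusted permutation p was below 0.1 each time in ethanol vs. control and in 2 of 12 cases in withdrawal vs. ethanol. No call is drawn from these, since the tests not given lower the adjusted p. For Gfap to Aldh1l1 the differences ranged from 0.68 to 1.08 (withdrawal vs. control), −0.26 to −0.0020 (ethanol vs. control) and 0.79 to 1.19 (withdrawal vs. ethanol), again without a test. Other scalings changed no count of the 9 by more than 1.5 times, but both ended the call of Sox9 in withdrawal vs. control. Whether rats with the same replicate number were feeding partners could not be decided here. Of 18 same-numbered pairs of rats 4 had a correlation above 0.1, with values from −0.408 to 0.486, and 8 of 36 cases correlated best with their own number. Such correlations cannot exclude a pairing, since levels also vary with the dissected tissue. With the replicate block Slc14a1 and Aldh1l1 were called in withdrawal vs. control and Gja1 (q = 0.108) and Sox9 (q = 0.115) were not.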
